A study of Mus musculus with 13 samples.

Results

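Oligodendrocyte precursor cells, the dividing glial cells that give rise to myelinating oligodendrocytes, are marked by 9 genes followed here across the arrays: Pdgfra, Cspg4, Olig1, Olig2, Nkx2-2, Gpr17, Neu4, Bcas1 and Lhfpl3. The genes were chosen by name, and every probe annotated to one of these symbols in the non-normalized bead array data was taken. A probe was found for 8 of the 9 genes, with 11 probes in all, among 16593 genes that had a named probe. Each of these 8 genes was detected, with a detection p under 0.01, on at least 1 of 13 arrays, and all 8 entered the tests beside 10923 such genes in total, themselves included. No probe was matched to Lhfpl3, which is not analysed here.

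The lineage has a known order. The homeodomain factor Nkx2-2 and the basic helix-loop-helix factors Olig1 and Olig2 act in the oligodendrocyte lineage of the ventral neural tube. Olig2 is also kept by many neural stem cells grown in culture. Precursors then carry the receptor for platelet-derived growth factor, Pdgfra, through which they divide, and the proteoglycan NG2, encoded by Cspg4, which pericytes carry too. On the way to myelin, precursors lose Pdgfra and NG2 and pass through a stage marked by the orphan receptor Gpr17 and by Bcas1, before myelin genes such as Mbp rise. Pdgfra is also a common gene of fibroblasts and other mesenchymal cells.

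The study used Illumina bead arrays to profile mouse RNA from 7 groups of samples, all of strain C3H. iNSC in vivo are neural stem cells induced from embryonic fibroblasts and taken after transplantation into adult mouse brain (1 array; the label has the number 14 for the interval and no unit). NSC in vivo are neural stem cells labelled as in vivo (1 array), with no mention of a graft. Below, the iNSC line and the NSC line each pair an in vivo array with cultured clones by name. In culture there were iNSC, the cells induced from fibroblasts (3 clones), ESC NPC, neural progenitors differentiated from embryonic stem cells (3 clones), and NSC, neural stem cells (3 clones), with 1 array per clone. The starting cell types were mouse embryonic fibroblasts, MEF (1 array), and embryonic stem cells, ESC (1 array). The labels name neither the conversion factors nor a sort of the cells, and no group carries a named mutation or drug. Whether clones came from separate animals or cultures is not stated, so p-values measure the spread between these clones. In such bulk RNA, fewer cells of a type and less RNA per cell cannot be told apart.

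Of 25697 probes, iNSC in vivo detected 26.2% and NSC in vivo 26.7%, against 40.8% to 49.9% on the arrays of cultured cells. On the in vivo arrays the lowest normalized level of a detected probe was also higher, at 6.50 and 6.44 on the log2 scale against 4.60 to 5.05 in culture, so a gene at level 6 can be below detection there. Among 7 neural stem cell markers, Sox2, Nes, Fabp7 and Nr2e1 were not detected on either in vivo array, while all 7 were detected in every iNSC and NSC clone. Of 7 microglia markers, 7 were detected on iNSC in vivo and 6 on NSC in vivo, against none in any cultured neural clone, and endothelial markers stood at 6 and 7 of 7, against at most 3. The MEF array detected all 8 fibroblast markers, but also 6 of the 7 neural stem cell markers and all 8 astrocyte markers. On MEF and ESC only 0.156% of the deposited signals have 1 decimal, against 100% on the other arrays, and this difference in export cannot be told apart from the groups.

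Levels below are log2 values after background correction and quantile normalization. A level can be compared between samples for one probe, but not between probes. Differences are log2 values with their standard error (SE) from a limma fit of all 7 groups, and adjusted p-values cover all 10923 genes.

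Olig1 was detected on all 13 arrays and varied little between clones of a group. It stood at 11.60 in iNSC in vivo and 12.38 in NSC in vivo, at 13.65, 13.66 and 13.74 in the iNSC clones, at 12.02, 11.69 and 11.73 in ESC NPC, at 13.57, 13.61 and 13.55 in NSC, at 9.31 in MEF and at 9.75 in ESC. The iNSC and NSC clones were thus the 6 highest arrays, the ESC NPC and in vivo arrays lay between, and MEF and ESC were lowest. The raw signal was 15697 to 15973 in iNSC and 15238 to 15944 in NSC, below the brightest probes of these arrays. It still lay above 99.86% to 99.91% of the probes there, and whether such bright signals were compressed was not tested. The iNSC and NSC means were neighbours that differed by less than 2 residual SD, as did ESC NPC and iNSC in vivo.

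Olig2, its neighbour on chromosome 16, was detected in fewer samples. It was below detection on both in vivo arrays (4.40 in iNSC in vivo, 4.23 in NSC in vivo), in all 3 ESC NPC clones (4.40, 4.45 and 4.39) and in ESC (4.55). Its level was 6.65, 6.63 and 6.80 in the iNSC clones, 6.13, 6.25 and 6.11 in the NSC clones and 4.81 in MEF. Every iNSC clone lay above every NSC clone, and the probe read near the floor elsewhere.

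Nkx2-2 differed from Olig2 in that ESC NPC detected it and iNSC did not. It was not detected in iNSC in vivo (4.44), in NSC in vivo (4.22) or in any of the 3 iNSC clones (4.23, 4.16 and 4.18). ESC NPC gave 6.36, 6.50 and 6.49, NSC gave 8.12, 7.96 and 5.57, and MEF gave 6.16, with ESC undetected at 4.29. NSC clone 3 lay below all ESC NPC clones, whereas the remaining NSC clones lay above them. A second Nkx2-2 probe was detected on 2 arrays only, both of NSC, with a highest level of 5.67.

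Pdgfra was high in NSC and in MEF. It stood at 8.44 in iNSC in vivo and 8.29 in NSC in vivo, at 6.88, 7.93 and 7.78 in iNSC, at 6.88, 6.79 and 7.13 in ESC NPC, at 11.01, 10.45 and 9.47 in NSC and at 11.14 in MEF, and was not detected in ESC (4.33). The NSC clones did not overlap with iNSC or ESC NPC, but iNSC clone 1 lay within the range of ESC NPC. MEF and NSC differed by less than 2 residual SD, and so did the neighbours from iNSC in vivo down to ESC NPC.

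Gpr17 reached its highest levels in NSC and was spread widely between clones. Its level was 6.83 in iNSC in vivo and 8.44 in NSC in vivo, and 6.67, 6.66 and 8.13 in iNSC. ESC NPC were below detection (4.72, 4.69 and 4.67), while NSC gave 11.48, 11.56 and 9.49, and MEF gave 5.25, with ESC undetected at 4.32. NSC clone 3 was the lowest NSC clone and iNSC clone 3 the highest iNSC clone, and these groups still did not overlap.

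Bcas1 was detected on all 13 arrays. Its level was 11.09 in iNSC in vivo and 12.27 in NSC in vivo, 11.29, 11.49 and 11.40 in iNSC, 7.16, 7.17 and 7.04 in ESC NPC, 12.58, 12.78 and 10.08 in NSC, 8.35 in MEF and 6.54 in ESC. The 3 iNSC clones fell between NSC clone 3 and the other NSC clones. The 4 groups of induced and neural stem cells, in culture and in vivo, formed a chain of neighbours within 2 residual SD, with MEF, ESC NPC and ESC well below.

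Cspg4 and Neu4 were dim. Cspg4 was undetected in vivo (5.04 in iNSC in vivo and 6.13 in NSC in vivo) and in the iNSC clones, at 4.42, 4.54 and 4.27. It was detected in ESC NPC clones 2 and 3 (4.78 and 5.02), in all 3 NSC clones (5.85, 5.45 and 5.10) and in MEF (4.70), and undetected in ESC (4.64). Neu4, a sialidase of oligodendrocytes and neurons, was detected on 1 array by the brightest of its 3 probes, that of NSC clone 2 (5.04). Elsewhere its undetected level was 6.16 in iNSC in vivo, 6.32 in NSC in vivo, 4.34 to 4.61 in iNSC, 4.38 to 4.66 in ESC NPC, 4.36 in MEF and 4.40 in ESC. Differences in these genes therefore rest on signals close to background.

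**Figure D1:**
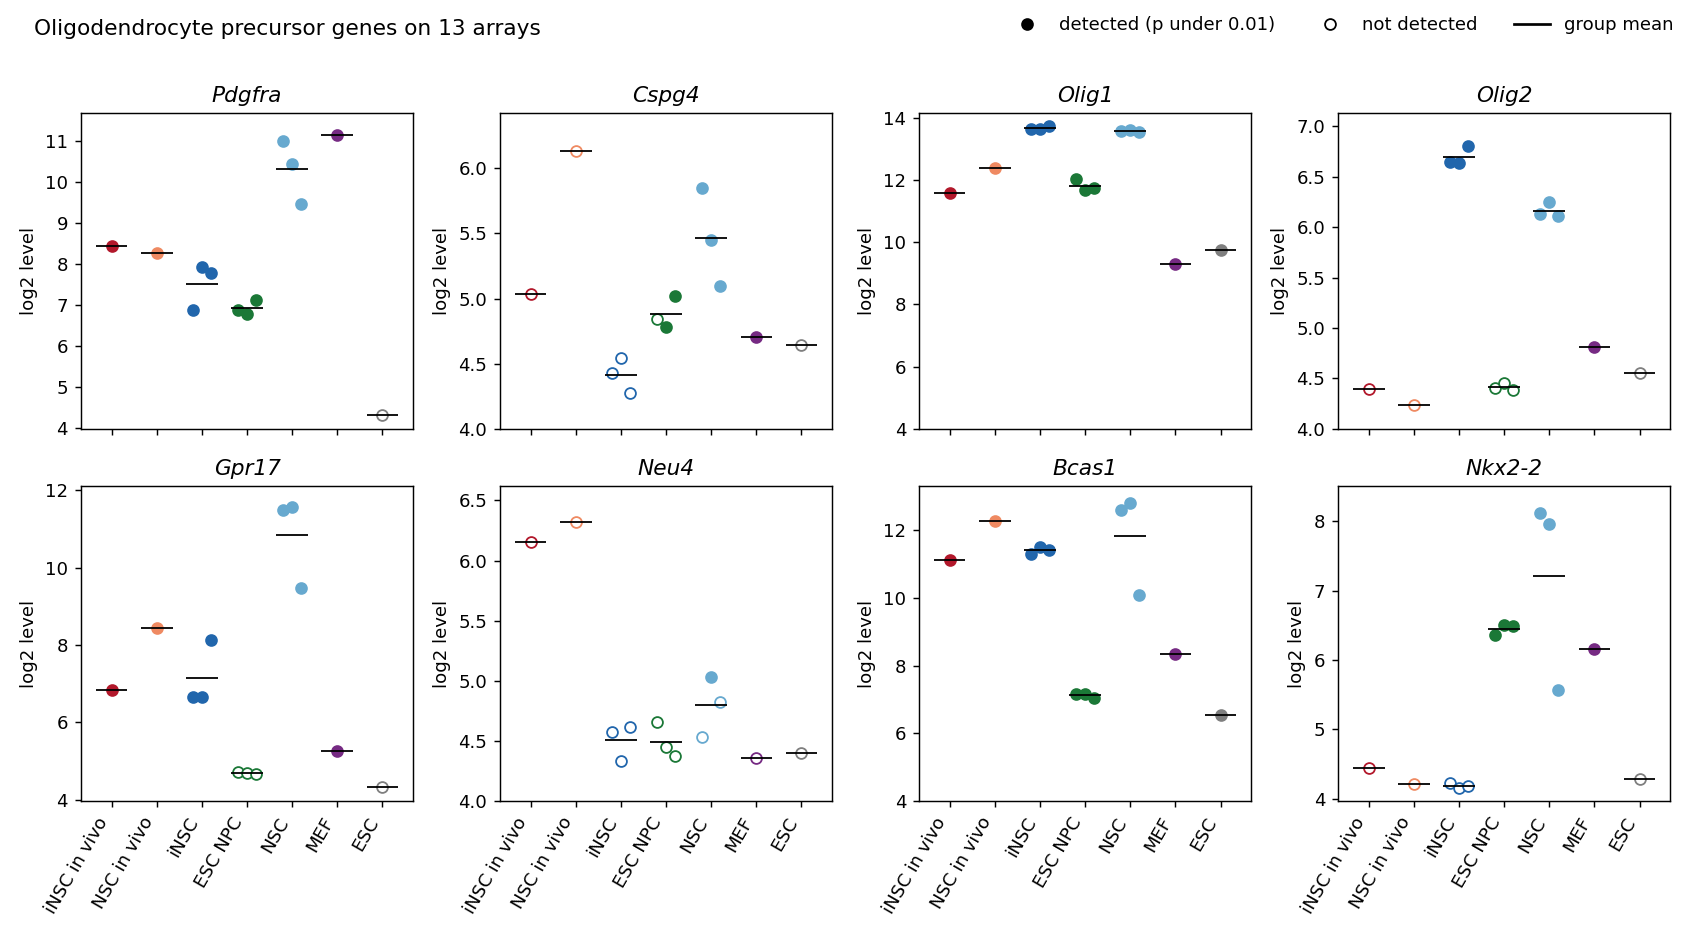
Normalized log2 level of the 8 genes with a probe on each of 13 arrays, one panel per gene and one column per group; filled points are arrays on which the probe was detected and open points are arrays on which it was not. Pdgfra, Gpr17 and Nkx2-2 lie highest in NSC (Pdgfra beside MEF), and Olig1 and Olig2 in iNSC and NSC. Bcas1 is high in iNSC, in NSC and on both in vivo arrays.

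The comparison of iNSC with NSC asks how far induced cells match neural stem cells. Of the 8 genes, 4 were lower in iNSC, 1 was higher and 3 did not pass the test, where 19.7% of all genes tested were called in either direction (10.3% higher and 9.42% lower). Pdgfra was lower by a log2 difference of -2.78 ± 0.38 (SE, 3 clones each, adjusted p = 0.000897). Gpr17 differed by -3.69 ± 0.56 (adjusted p = 0.00154). Both receptors were thus clearly detected in iNSC, at much lower levels than in NSC. Nkx2-2, below detection in every iNSC clone, was at least 4.89-fold lower (adjusted p = 0.00453), and Cspg4 at least 1.45-fold lower (adjusted p = 0.00267). These bounds are set by the dimmest probes that the arrays detect, and hold under the main processing only. Without background correction the log2 differences were -1.36 for Nkx2-2 and -0.31 for Cspg4. The bounds on that scale were -2.29 and -0.54, so these values fell short of them. Without NSC clone 3 the Gpr17 difference was -4.37 and Nkx2-2 was at least 8.48-fold lower. Without NSC clone 1 the Nkx2-2 bound was smaller, at 3.51-fold, and without NSC clone 2 it was 3.71-fold.

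The Olig genes did not follow. Olig2 averaged 6.70 ± 0.09 in iNSC and 6.16 ± 0.07 in NSC (SD, n = 3 each), a rise of 0.53 ± 0.09 (SE, adjusted p = 0.00239). Olig1 differed by 0.10 ± 0.10 (95% interval -0.13 to 0.34, adjusted p = 0.565). Bcas1 averaged 11.39 ± 0.10 in iNSC and 11.81 ± 1.51 in NSC, and its difference of -0.42 ± 0.58 did not pass (interval -1.74 to 0.90, adjusted p = 0.70). That call depends on a single clone: without NSC clone 3 the Bcas1 difference was -1.30 (adjusted p = 7.53e-05). Neu4, undetected in iNSC and detected in 1 NSC clone, did not pass (adjusted p = 0.213). The median over the 8 genes was -0.74, or -0.48 with the 3 genes undetected in iNSC at their bound, beside 0.01 over all genes.

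The promoters of 3 of these genes are printed: Nkx2-2 and Pdgfra, which fell in iNSC, and Olig2, which rose. Cspg4 and Gpr17 also fell and are not printed, so the choice is not a full set. Each window is the 250 bases before to 50 after the start site, from RefSeq on build GRCm38.p6, read along the gene's strand. E-boxes, CANNTG, which Olig2 and its relatives bind, are in capitals, and binding was not tested. A promoter sequence was matched for 6 of the 9 genes.
Nkx2-2, chr2:147186353-147186652, minus strand: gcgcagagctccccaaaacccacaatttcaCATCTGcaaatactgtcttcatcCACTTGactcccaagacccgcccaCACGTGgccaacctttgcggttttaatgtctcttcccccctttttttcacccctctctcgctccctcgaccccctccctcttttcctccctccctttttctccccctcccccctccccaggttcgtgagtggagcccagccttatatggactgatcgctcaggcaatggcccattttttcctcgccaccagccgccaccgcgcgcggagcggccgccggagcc
Pdgfra, chr5:75152001-75152300, plus strand: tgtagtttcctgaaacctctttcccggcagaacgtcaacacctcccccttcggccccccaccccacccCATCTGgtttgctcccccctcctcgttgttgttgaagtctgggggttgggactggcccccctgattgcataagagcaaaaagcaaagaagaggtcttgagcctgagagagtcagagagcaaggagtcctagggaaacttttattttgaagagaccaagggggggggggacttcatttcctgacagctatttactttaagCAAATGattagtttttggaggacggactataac
Olig2, chr16:91225300-91225599, plus strand: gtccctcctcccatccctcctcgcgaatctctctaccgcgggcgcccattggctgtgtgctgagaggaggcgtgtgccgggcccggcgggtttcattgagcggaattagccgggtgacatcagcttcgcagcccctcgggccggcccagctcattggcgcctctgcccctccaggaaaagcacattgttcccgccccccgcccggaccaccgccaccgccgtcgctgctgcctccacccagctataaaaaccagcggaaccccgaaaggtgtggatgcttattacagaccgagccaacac
The motif reads the same on both strands. It occurs at 3 places in the Nkx2-2 window, starting at positions -220, -197 and -173 relative to the start site, and at 2 places in that of Pdgfra, and at none in that of Olig2. Of 32851 promoter windows of this length 72.3% hold at least 1 E-box, 39.6% hold as many as Pdgfra or more and 17.6% as many as Nkx2-2 or more, so the matches are common and are given as a description only.

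Of 14 further precursor genes tested in iNSC against NSC, 4 were lower and 1 was higher, beside 9.42% and 10.3% of all genes. Matn4, an extracellular matrix protein, was below detection in all 3 iNSC clones (4.35, 4.30 and 4.37), against 10.03, 9.66 and 7.22 in NSC, and was at least 16.5-fold lower (adjusted p = 0.000605). Rlbp1, which encodes a retinaldehyde-binding protein, differed by -1.91 ± 0.24 (adjusted p = 0.000543), and the endothelin receptor gene Ednrb by -0.67 ± 0.19 (adjusted p = 0.0342). The adhesion molecule Cntn1 rose by 1.32 ± 0.26 (adjusted p = 0.00665). Lnx1, a ubiquitin ligase, was the other gene that fell, by at least 1.26-fold (adjusted p = 0.000904). Sox8 (-0.07 ± 0.19) and Myt1 (-0.06 ± 0.19), transcription factors of the lineage, were bright in both groups and did not pass the test.

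Pdgfa, the main ligand of the Pdgfra receptor in the nervous system, did not pass the test. It averaged 8.97 in iNSC and 9.03 in NSC, a difference of -0.05 ± 0.13 (adjusted p = 0.847). Of the 4 ligands and receptors of the family tested beside Pdgfra, Pdgfc alone passed, at 0.43 ± 0.13 (adjusted p = 0.0459), and this call was lost when any iNSC clone was left out. Among 8 inhibitors of oligodendrocyte differentiation, the Notch target Hes1 rose by 1.63 ± 0.40 (adjusted p = 0.0198), while its relative Hes5 (-1.63 ± 0.33, adjusted p = 0.00762) and the factor Sox5 (-1.07 ± 0.16, adjusted p = 0.00157) fell; without NSC clone 3, 4 of the 8 were lower. Further down the lineage, 3 of 12 genes of committed and myelinating oligodendrocytes were lower in iNSC and 9 did not pass the test. Over all genes 10.3% were higher and 9.42% lower in this comparison. Mbp, the myelin basic protein gene, was undetected in iNSC (4.37, 4.29 and 4.32), against 9.58, 8.61 and 5.56 in NSC, a difference of at least 7.94-fold (adjusted p = 0.0128). Ugt8a, an enzyme of myelin lipid synthesis, differed by -2.22 ± 0.30 (adjusted p = 0.000781) and Cnp by -1.04 ± 0.23 (adjusted p = 0.011). Without NSC clone 3, the count of committed genes was 7 of 12 lower, where 10.7% of all genes were lower.

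Markers of other cell types moved in the same comparison, where 10.3% of all genes were higher and 9.42% lower. Of 8 astrocyte markers 4 were higher in iNSC and 2 lower, which were the gap junction gene Gja1 (-7.02 ± 0.33, adjusted p = 9.77e-07) and Aldh1l1 (-3.64 ± 0.18, adjusted p = 1.46e-06), and their summed level was 20877 to 28535 intensity units in iNSC and 30372 to 35797 in NSC. Of 7 neuron markers 3 were lower, among them Dcx, a gene of migrating young neurons (-3.08 ± 0.49, adjusted p = 0.002), with sums of 3397 to 4590 in iNSC and 2865 to 4528 in NSC. Among 8 pericyte markers the actin gene Acta2 alone passed, at -5.17 ± 0.39 (adjusted p = 2.4e-05), with sums of 182 to 229 in iNSC and 1147 to 2796 in NSC. Acta2 was also the only one of the 8 detected in any iNSC or NSC clone, so these sums follow Acta2. The part of such cells in the iNSC and NSC differences was not tested.

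ESC NPC were set against NSC to compare progenitors of another origin. Of the 8 genes, 6 were lower in ESC NPC and none was higher, where 57.4% of all genes were called (27.8% higher and 29.6% lower). By limma's unadjusted p under 0.05 the count was also 6. Gpr17 was at least 65.7-fold lower (adjusted p = 1.40e-05), since no ESC NPC clone detected it. Bcas1 differed by -4.69 ± 0.58 (adjusted p = 0.000106) and Pdgfra by -3.38 ± 0.38 (adjusted p = 5.63e-05). Olig1 was lower by -1.76 ± 0.10 (adjusted p = 9.37e-07) and stayed well above background, whereas Olig2 was below detection and at least 2.57-fold lower (adjusted p = 3.40e-07). Cspg4 differed by -0.58 ± 0.18 (adjusted p = 0.018), a call lost without ESC NPC clone 1 (0.0541), ESC NPC clone 2 (0.0626) or NSC clone 1 (0.0523). Without NSC clone 3, Gpr17 was at least 102.9-fold lower and Bcas1 differed by -5.57. The Gpr17 bound was smaller without NSC clone 1 (51.7-fold) or NSC clone 2 (50.2-fold). Without background correction the log2 differences were -4.04 for Gpr17 and -0.57 for Olig2, smaller than their bounds of -6.04 and -1.36.

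Nkx2-2 was the exception among the transcription factors Olig1, Olig2 and Nkx2-2. It was detected in every ESC NPC clone and differed from NSC by -0.76 ± 0.55 (interval -2.01 to 0.49, adjusted p = 0.272), though without NSC clone 3 the difference was -1.58 (adjusted p = 2.56e-06). Neu4, undetected in ESC NPC, did not pass (adjusted p = 0.105). The counts of other lists that follow stand beside 27.8% of all genes higher and 29.6% lower. Of the 14 further precursor genes, 10 were lower, among them Myt1 (-4.38 ± 0.19, adjusted p = 1.28e-07), Sox8 (-4.10 ± 0.19, adjusted p = 2.09e-07) and Ednrb (-2.86 ± 0.19, adjusted p = 1.79e-06), and Emid1 alone was higher, near background. Pdgfa (0.69 ± 0.13, adjusted p = 0.00143) and Pdgfc (1.97 ± 0.13, adjusted p = 1.87e-06) were higher in ESC NPC. Among the 8 inhibitors 6 were lower, including Sox5 (-2.01 ± 0.16), Hes5 (-3.85 ± 0.33, adjusted p = 9.52e-06) and Lingo1, at least 2.74-fold lower, and 7 of 12 committed genes were lower, with Cnp at -4.04 ± 0.23 (adjusted p = 7.15e-07). All 8 pluripotency markers were detected in the 3 ESC NPC clones, with a summed level of 8811 to 9229 intensity units, against 185 to 201 in NSC and 30497 in ESC. Of 8 fibroblast markers 6 were higher in ESC NPC, with Dcn at least 24.5-fold and Lum at least 13.4-fold higher. Col1a1 and Col1a2 were undetected in all 3 ESC NPC clones, whereas MEF detected all 8. The summed level of the 8 was 2053 to 2207 in ESC NPC, 214 to 402 in NSC and 36239 in MEF. All 8 astrocyte markers were lower, with sums of 7564 to 8064 in ESC NPC and 30372 to 35797 in NSC. The part of such cells in these differences was not tested.

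Directly compared, iNSC and ESC NPC split the 8 genes. In iNSC 4 were higher and 2 lower, where 60.4% of all genes were called (31.4% higher and 28.9% lower). Bcas1 was higher by 4.27 ± 0.58 (adjusted p = 0.00017), Olig1 by 1.86 ± 0.10 (adjusted p = 5.31e-07), Olig2 by at least 3.71-fold (adjusted p = 4.76e-08) and Gpr17 by at least 5.08-fold (adjusted p = 0.00389). Nkx2-2 was at least 2.88-fold lower in iNSC (adjusted p = 0.00587) and Cspg4, undetected in iNSC, was called lower with no bound above 1 (adjusted p = 0.042). The Cspg4 call was lost under 9 of 20 alternatives, among them leaving out any ESC NPC clone (0.0641 to 0.13), iNSC clone 1 (0.08) or iNSC clone 3 (0.124). Pdgfra differed by 0.60 ± 0.38, with an interval of -0.27 to 1.46 (adjusted p = 0.208). Among the cultured neural cells, iNSC thus combined detected Olig1, Olig2 and Gpr17 with undetected Nkx2-2, and ESC NPC combined detected Nkx2-2 with undetected Olig2 and Gpr17. The comparisons among these 3 groups share samples, so their values are given side by side. Without background correction the Gpr17 (adjusted p = 0.103) and Nkx2-2 (adjusted p = 0.0551) differences did not pass. Olig2 was then higher by a log2 difference of 0.83, below its bound of 1.89.

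**Figure D2:**
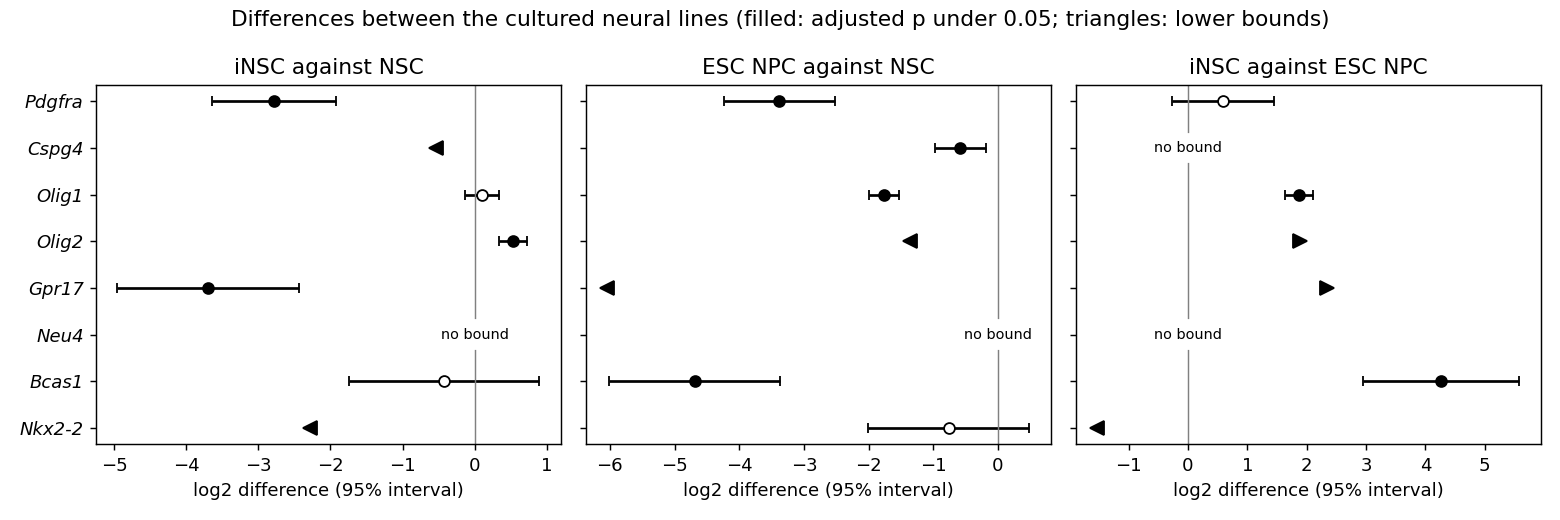
Log2 differences of the 8 genes in the 3 comparisons of cultured neural cells (points, with 95% intervals from limma); triangles stand at the lower bound and point away from 0 where 1 group had no array that detected the probe, and "no bound" marks genes for which none could be set. Nkx2-2 has a bound below 0 in iNSC against both other groups (at least 4.89-fold against NSC and at least 2.88-fold against ESC NPC).

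Against MEF, the cell type they were induced from, iNSC were higher in Olig1 (4.37 ± 0.15, adjusted p = 2.43e-08), Olig2 (1.88 ± 0.12, adjusted p = 2.23e-06) and Bcas1 (3.05 ± 0.82, adjusted p = 0.0123). They were lower in Pdgfra (-3.61 ± 0.54, adjusted p = 0.000431). These 3 higher and 1 lower of 8 stand beside 28% and 21.9% of all genes (49.8% in all). Gpr17 (1.90 ± 0.79, adjusted p = 0.0741) and Nkx2-2 (at least 2.35-fold lower, adjusted p = 0.0633) did not pass, although without NSC clone 3, which also enters the pooled spread, both did (adjusted p = 0.0107 for Gpr17 and 3.31e-06 for Nkx2-2). The summed level of the 8 fibroblast markers was 191 to 253 in iNSC and 36239 in MEF, and all 8 were lower in iNSC. Pdgfra moved with these markers, and their part in its difference was not tested.

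NSC against MEF gave 5 genes higher and none lower by limma, adjusted or not, beside 27.8% and 22.9% of all genes (50.7% in all). Gpr17 was higher by 5.59 ± 0.79 (adjusted p = 0.000291), Olig1 by 4.26 ± 0.15 (adjusted p = 2.83e-08), Bcas1 by 3.47 ± 0.82 (adjusted p = 0.00626), Olig2 by 1.35 ± 0.12 (adjusted p = 1.79e-05) and Cspg4 by 0.76 ± 0.25 (adjusted p = 0.0286). Pdgfra did not pass, at -0.83 ± 0.54 (interval -2.05 to 0.39, adjusted p = 0.235), so its levels in NSC and MEF were not told apart. With a single MEF array, which also detected neural markers, these tests assume that MEF vary like the clones. Without NSC clone 3, Gpr17 was at 6.25, Bcas1 at 4.35 and Nkx2-2 at 1.87 (adjusted p = 6.32e-06), while a fit of only these 2 groups lost Bcas1 (0.0946) and Cspg4 (0.148).

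ESC NPC against ESC gave 3 genes higher and none lower by limma, adjusted or not, beside 22.2% and 22.5% of all genes (44.7% in all). Olig1 was higher by 2.07 ± 0.15 (adjusted p = 5.28e-06), Pdgfra by at least 3.75-fold (adjusted p = 0.0036) and Nkx2-2 by at least 2.69-fold (adjusted p = 0.0489). The Nkx2-2 call was lost under 12 of 19 alternatives, and that of Pdgfra without background correction (0.128). Olig2 and Gpr17 were below detection on all 4 arrays, and Bcas1 gave 0.59 ± 0.82 (adjusted p = 0.629).

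In vivo, Olig1 and Olig2 were called lower in both lines, but only for Olig1 could a fall be measured in both. Olig1 differed by -2.08 ± 0.15 between iNSC in vivo and iNSC (adjusted p = 1.14e-06) and by -1.20 ± 0.15 between NSC in vivo and NSC (adjusted p = 5.65e-05). Falls of this size were common, with 10.96% of all genes falling further in the iNSC line and 21.29% in the NSC line. Olig2 was undetected on both in vivo arrays and detected in every clone of both lines. It was called lower in each (adjusted p = 1.78e-07 in the iNSC line and 5.96e-07 in the NSC line), with a bound of at least 1.14-fold for iNSC in vivo and none above 1 for NSC in vivo, given the higher detection floor there. For iNSC in vivo 2 of 8 genes were called lower and 2 higher, and for NSC in vivo 5 lower and 2 higher, whereas 68% of all genes were called in each (33.6% higher and 34.4% lower in the iNSC line, 33.9% and 34.1% in the NSC line). The shares over all genes show how different these arrays are as a whole, and each rests on 1 in vivo array, assumed to vary like the clones.

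Pdgfra and Gpr17, the receptors, were called lower in the NSC line. Pdgfra differed by -2.03 ± 0.54 (adjusted p = 0.00781) and Gpr17 by -2.40 ± 0.79 (adjusted p = 0.0223) between NSC in vivo and NSC, and Nkx2-2 was at least 1.71-fold lower (adjusted p = 0.00697). A fit of only these 2 groups did not call these 3 genes (0.0542, 0.0967 and 0.0903). Without NSC clone 3 Gpr17 differed by -3.08 and Nkx2-2 was at least 3.02-fold lower. The Nkx2-2 bound was smaller without NSC clone 1 (1.25-fold) or NSC clone 2 (1.32-fold). In the iNSC line Pdgfra gave 0.91 ± 0.54 (adjusted p = 0.164) and Gpr17 -0.32 ± 0.79 (adjusted p = 0.744), and Nkx2-2 was undetected on all 4 arrays. Bcas1 differed by -0.30 ± 0.82 in the iNSC line (adjusted p = 0.775) and by 0.45 ± 0.82 in the NSC line (adjusted p = 0.655). The calls of Cspg4 and Neu4 as higher in both lines concern probes that were not detected in vivo, and no fold is given for them. Scaling arrays by their median instead of by quantiles moved the median of all genes by -0.76 in the iNSC line and -0.84 in the NSC line, and gave 14% of all genes higher and 53.1% lower in the iNSC line, and 14.9% and 54.3% in the NSC line. Under that scaling Gpr17 in the iNSC line was at -2.02 and was called lower (adjusted p = 0.0454). Pdgfra in the iNSC line was at -0.91 and Bcas1 in the NSC line at -1.14, with neither passing, while Olig1 and Olig2 stayed lower in both lines.

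Between the 2 in vivo arrays there is no replicate and no test. Pdgfra was 8.44 in iNSC in vivo and 8.29 in NSC in vivo, Olig1 11.60 and 12.38, Gpr17 6.83 and 8.44, and Bcas1 11.09 and 12.27. Gpr17 and Bcas1 were lower by 2-fold or more in iNSC in vivo (-1.62 and -1.17), as was the undetected Cspg4, beside 9.21% of all genes lower and 9.18% higher by as much. The 3 of 8 therefore include 2 measured genes.

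Genes of later stages were followed in the same way. Of 12 committed and myelinating genes, 5 were higher and 1 lower in iNSC in vivo against iNSC, where 33.6% of all genes were called higher, and 5 were higher and 2 lower in NSC in vivo against NSC, where 33.9% were. Both in vivo arrays failed to detect Enpp6, Ugt8a and Aspa. Mobp, a myelin protein gene, was at least 29.7-fold higher in iNSC in vivo and at least 73.1-fold higher in NSC in vivo (adjusted p = 5.09e-10 and 2.89e-10). Mal, another protein of myelin, was at least 8.28-fold and at least 36.4-fold higher. Mbp itself reached 12.80 in iNSC in vivo and 13.88 in NSC in vivo. The summed level of this list was 10782 in iNSC in vivo against 1268 to 1577 in iNSC, and 22610 in NSC in vivo against 1494 to 4189 in NSC. Of the other lists, 6 of 8 inhibitors of differentiation were lower on each in vivo array, beside 34.4% of all genes in the iNSC line and 34.1% in the NSC line. Each in vivo array detected 1 of the 8. Sox5 was at least 6.39-fold lower in iNSC in vivo and at least 14.0-fold lower in NSC in vivo.

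Among the 14 further precursor genes, 6 were lower and 3 higher in iNSC in vivo, and 8 lower and 1 higher in NSC in vivo. These counts stand beside 68% of all genes called in each line. Only 5 of the 14 were detected on iNSC in vivo and 4 on NSC in vivo, where the detection floor is higher. Sox8 was at least 8.92-fold lower in iNSC in vivo and at least 9.81-fold lower in NSC in vivo. Matn4, undetected in iNSC clones, was detected at 7.82 in iNSC in vivo and was at least 7.45-fold higher than in iNSC (adjusted p = 0.00442). Pdgfa was lower in both lines (-1.56 ± 0.18 in iNSC in vivo and -2.17 ± 0.18 in NSC in vivo), while Pdgfb, a ligand made by endothelial cells among others, was at least 13.6-fold and at least 34.1-fold higher. Summed levels of other cell types moved in different directions. Microglia markers reached 9594 in iNSC in vivo and 5231 in NSC in vivo, against 137 to 143 in the iNSC and NSC clones. Endothelial markers reached 3418 in iNSC in vivo against 236 to 260 in iNSC, and 17536 in NSC in vivo against 147 to 172 in NSC. Of 8 pericyte markers, 3 were detected on iNSC in vivo and 5 on NSC in vivo, against 1 in each iNSC and NSC clone. Fibroblast markers reached 1486 in iNSC in vivo against 191 to 253 in iNSC, and 1132 in NSC in vivo against 214 to 402 in NSC. Each in vivo array detected 4 of these 8 markers. Astrocyte sums were lower, at 19210 in iNSC in vivo against 20877 to 28535 in iNSC, and 23486 in NSC in vivo against 30372 to 35797 in NSC. Neuron sums were 2611 in iNSC in vivo against 3397 to 4590 in iNSC, and 3976 in NSC in vivo against 2865 to 4528 in NSC. The median log2 difference over the 7 neuron markers was 1.14 in the iNSC line and 0.70 in the NSC line. In the iNSC line most neuron markers thus read higher although their sum was lower. Only 4 of the 7 were detected on each in vivo array. The part of these cell types in the in vivo differences was not tested.

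**Figure D3:**
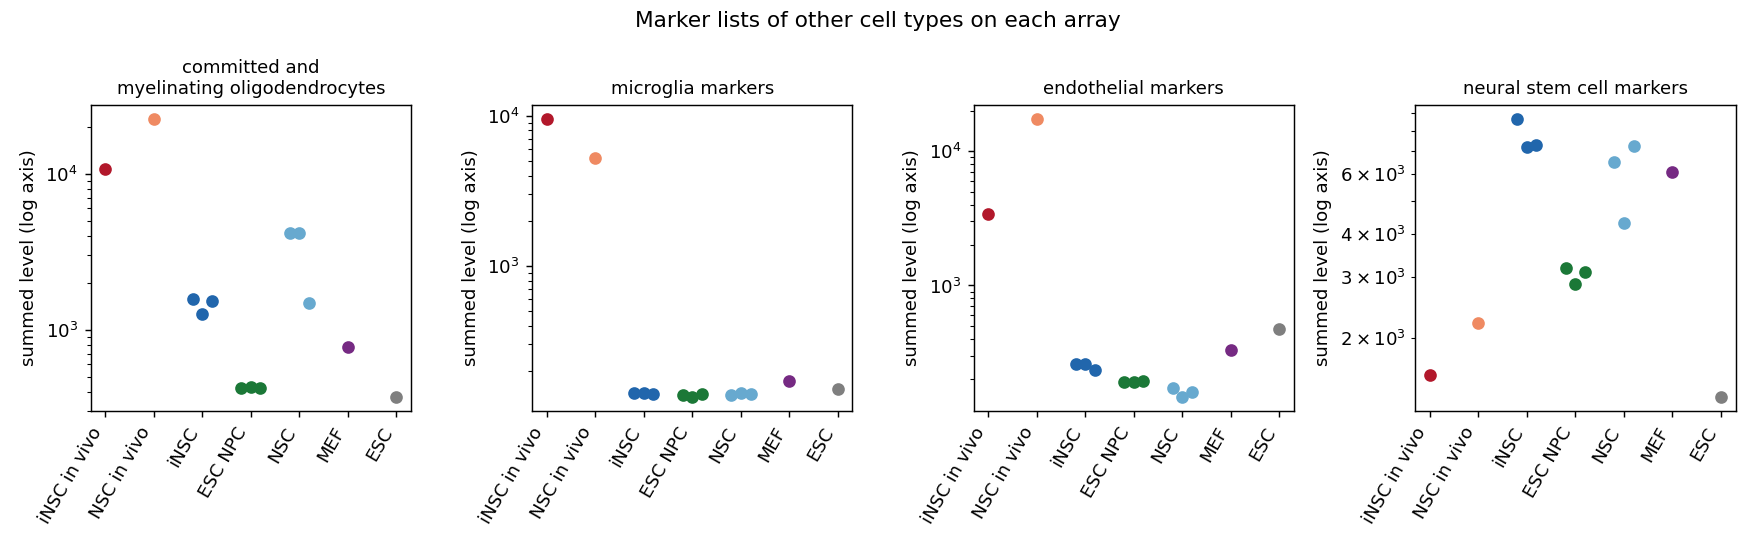
Summed normalized level of 4 marker lists on each of 13 arrays, by group, on a log axis. Committed and myelinating oligodendrocyte, microglia and endothelial markers are highest on the 2 in vivo arrays, and neural stem cell markers are lower there than in iNSC and NSC.

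The clones within a group were far from equal for some of these genes. Against the mean of NSC clones 1 and 2, clone 3 was lower by log2 differences of -2.60 for Bcas1, -2.47 for Nkx2-2, -2.03 for Gpr17 and -1.26 for Pdgfra, while Olig1 (-0.04) and Olig2 (-0.08) hardly differed. Falls as large as that of Bcas1 were rare, with 0.0549% of all genes falling further, and 0.0641%, 0.137% and 0.623% doing so for the other 3. In all, 4 of 8 genes were lower by a log2 of 1 or more in clone 3, beside 1.27% of all genes. Clone 3 was the lowest NSC clone for 7 of the 8, for all 14 further precursor genes, for all 7 neuron markers and for 8 of 12 committed genes, where 39.4% of all genes had it lowest. It was lowest for 4 of 8 astrocyte markers and for 2 of 7 neural stem cell markers. A single clone has no replicate, so these values describe 1 array.

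The same genes were among the most spread in that group, and the deviation of clone 3 is part of that spread. The SD between NSC clones was 1.51 for Bcas1, 1.43 for Nkx2-2, 1.17 for Gpr17 and 0.78 for Pdgfra, beside a median of 0.16 over all genes, but 0.03 for Olig1 and 0.07 for Olig2. In iNSC, Gpr17 had an SD of 0.85 and Pdgfra 0.57, beside a median of 0.15, with clone 3 higher in Gpr17 by 1.46 and clone 1 lowest in Pdgfra. ESC NPC clones were close, with an SD of at most 0.18 for each of the 8 genes, beside a median of 0.10 over all genes. Olig1, Pdgfra, Neu4 and Cspg4 lay above that median and the other genes below it.

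**Figure D4:**
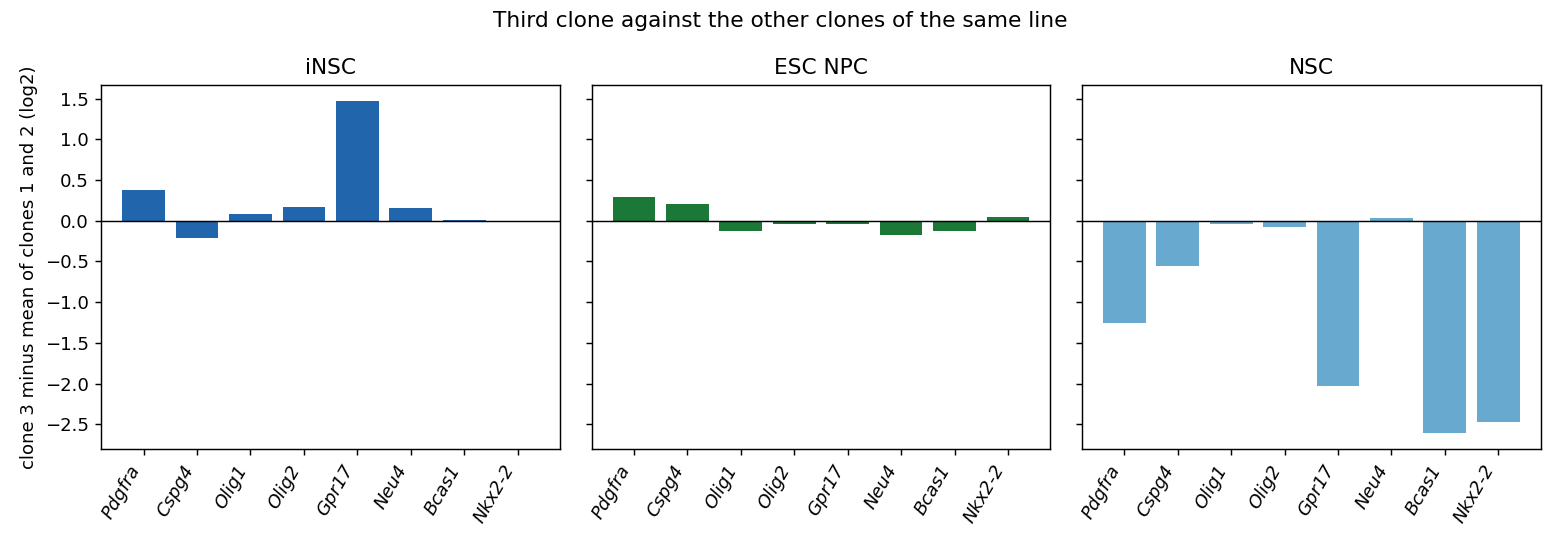
Log2 level of clone 3 minus the mean of clones 1 and 2 for the 8 genes, in iNSC, ESC NPC and NSC, 1 bar per gene with no error since each clone has 1 array. In NSC, Bcas1, Nkx2-2, Gpr17 and Pdgfra lie between -2.60 and -1.26, and in iNSC Gpr17 lies at 1.46.

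Across the 13 arrays, which share 7 groups and one normalization, the 8 genes did not form 1 pattern. Levels below detection enter these coefficients as measured. Over 13 arrays Gpr17 and Bcas1 were the most alike (Pearson r = 0.848), followed by Olig1 and Olig2 (0.753) and by Olig1 and Bcas1 (0.711). Nkx2-2 stood near 0 with Olig1 (0.058), Olig2 (-0.034) and Bcas1 (-0.024). Over the 11 cultured arrays the order differed, with Olig2 and Bcas1 at 0.922, Cspg4 and Nkx2-2 at 0.885 and Gpr17 and Bcas1 at 0.87. The genes most like each of them lay outside the list. Lrrn3 was nearest to Pdgfra (0.952), Lgi3 to Cspg4 (0.937), Mapk8ip1 to Olig1 (0.983) and Lonp2 to Olig2 (0.984). Elavl3 was nearest to Gpr17 (0.957), Ppfia3 to Neu4 (0.977), Nlgn2 to Bcas1 (0.99) and Ldb2 to Nkx2-2 (0.936). The next in each case were Cavin3, Sema5a, Fbxw5, Gpam, Gdap1, Sptb, Mvb12b and Nnat, in the same order. These are descriptions over few groups, where the largest differences between groups set the coefficient.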

How the data were processed

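The deposited table of signal intensity per probe and array, with a detection p-value that the authors gave beside each, was used. The authors' processed series values, whose range is that of log2 intensities, served as an alternative. Levels computed here correlated with them at r = 0.978 on each array. Per the submitters' processing notes the tools were BeadStudio 3.2, RMA and lumi, with no role given. Of 25697 probes, 23978 had 1 gene symbol and 1719 are unnamed here.

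Background correction used limma's normexp, fitted through the detection p-values, with an offset of 16 added. Values were then put on a log2 scale and quantile-normalized with limma 3.58.1 in R 4.3.3 (statmod 1.5.0). Probes detected at p under 0.01 on at least 1 array were kept, and the brightest stood for its gene, leaving 10923 genes. One limma fit of 7 groups left 6 residual degrees of freedom, which come from the clones alone. Tests were two-sided, Benjamini-Hochberg adjusted over all genes, with a threshold of 0.05. Where a group had no array that detected the probe, the fold is a lower bound, "at least", against the mean of each array's dimmest detected level or the probe's own level, whichever was higher. These bounds hold under the main processing, and other background settings gave smaller differences for some genes. The number of arrays limits the precision. No 2 arrays held identical values; their highest correlation was 0.996. Slide and scan were not used as blocks, since the columns name none.

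The 9 genes and the other lists were chosen with earlier results of these data known. The 8 with a probe are described. Of each other list up to 3 genes with the smallest p per comparison were named, plus the 2 genes most correlated with each of the 9. Cntn1, Ednrb, Pdgfa, Sox8 and Myt1 in iNSC against NSC were added after their values were seen. So were Emid1, Col1a1 and Col1a2 in ESC NPC against NSC, Matn4 and Mbp in vivo, and the undetected Enpp6, Ugt8a and Aspa. Same-numbered iNSC and NSC clones deviated together (r = 0.211, 0.503 and 0.276, other numbers -0.403 to 0.235), which the labels do not explain, so a fit with the clone number as a block was added, as were fits without the in vivo arrays, both after seeing the data. Pairs with ESC NPC clones gave -0.042 to 0.115. The fit was tested on simulated data.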

Additional observations from a re-analysis of the deposited data

Results flagged for a closer look

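Pdgfra lay on opposite sides of the cultured clones in the 2 lines. Its level in vivo minus culture was 0.914 in the iNSC line, which did not pass the test (adjusted p = 0.164), and -2.03 in the NSC line, with the in vivo array above every iNSC clone and below every NSC clone. With arrays scaled by their median, the iNSC value was -0.91, so the signs no longer differed. The difference between the lines was not tested.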

How the results depend on the processing

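In iNSC against NSC the falls of Pdgfra, Cspg4, Gpr17 and Nkx2-2 and the rise of Olig2 kept direction and call under 21 of 21 alternatives. With clone number as a replicate block Pdgfra differed by -2.78 (adjusted p = 0.003089), and with the block on only the iNSC and NSC arrays 0.0241. The block changed no call among the 8 genes. Over all comparisons and alternatives, 1135 values kept their call, 52 lost it, 26 gained it and 3 reversed. The reversed values were NSC in vivo against NSC with median scaling, for Cspg4 (-0.61, adjusted p = 0.102) and Neu4 (-0.059, adjusted p = 0.778), both undetected in vivo, and Bcas1 without NSC clone 3 (-0.41, adjusted p = 0.0329), where leaving out single clones gave -0.41 to 0.95 for Bcas1. Without background correction, 3 of 8 genes were called in iNSC against ESC NPC (58.4% of all genes) and 1 in ESC NPC against ESC (41.3%). In fits of only the 2 groups compared, which have fewer samples, 3 were called in NSC against MEF (38% of all genes), 5 in ESC NPC against ESC (56.3%) and 3 in NSC in vivo against NSC (59.2%). With median scaling, 1 gene differed by 2-fold or more between the in vivo arrays (11.5% of all genes). That scaling also shifted the split of all calls in culture, with 19.2% higher and 40.2% lower in ESC NPC against NSC, 40% and 21% in iNSC against ESC NPC, 36.4% and 18.7% in iNSC against MEF, 36.8% and 19.2% in NSC against MEF, and 17.2% and 26.4% in ESC NPC against ESC. Leaving out single clones gave 2 to 4 called genes in iNSC in vivo against iNSC, with 2 without NSC clone 2 (69.4% of all genes). In NSC in vivo against NSC the Gpr17 call was also lost without NSC clone 1 (0.0532). The cause of these changes was not tested. Dim probes and 1 array for 4 of the groups limit the precision.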
